A study of Homo sapiens with 12 samples.

Results

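The ATP-binding cassette (ABC) transporter family was examined as the 45 genes of the table whose symbol is ABCA, ABCB, ABCC, ABCD, ABCE, ABCF or ABCG followed by a number, out of 20263 genes in all. Of these 45 members, 27 exceeded 1 TPM in at least 1 of the 12 libraries and 20 exceeded it in all 12, whereas 18 never did. TPM, the unit of all levels here, is read density along a transcript, expressed relative to the sum of such densities in the library. The 24 members with a TPM of at least 1 in 3 or more libraries were tested. The other 21 were described by their values alone, and all 5 ABCG genes, ABCG2 included, were among them.

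ABC proteins carry nucleotide-binding domains that hydrolyse ATP, and in most members these drive a substrate through membrane-spanning domains. Exporters of the ABCB, ABCC and ABCG subfamilies remove drugs, glutathione conjugates and other organic anions from cells, and ABCB1 and ABCG2 are well known at the blood-brain barrier and in glioma. Other members move sterols and phospholipids or serve mitochondria, peroxisomes and lysosomes, while ABCE1 and the ABCF proteins have no membrane domain and act on ribosomes.

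Messenger RNA was sequenced from U-87 MG (U87), an established human glioblastoma cell line, held in 1% O2. The 4 groups of 3 libraries were cells with an empty vector (vector), cells with HIF1α knocked out (HIF1α-ko), cells with HIF2α knocked out (HIF2α-ko) and cells with both knocked out (HIF1α/2α-ko, the dual knockout), so that every group, the control included, was hypoxic. HIF1α and HIF2α are the oxygen-regulated subunits of the hypoxia-inducible transcription factors, and the comparisons ask how their loss alters transcription in hypoxic cells. GEO describes 72 h of hypoxia for the sequenced cells, and the methods text gives 12 h for the detection of mRNA without naming sequencing. No source used here says whether a knockout group is 1 clone, where each gene was edited, or whether the 3 libraries of a group came from separate cultures, so that p-values measure only the spread between these libraries, which may be technical.

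HIF1A, which encodes HIF1α, stood at 38.6 to 57.3 TPM in HIF1α-ko and 67.8 to 89.2 TPM in HIF1α/2α-ko against 110 to 151 TPM in vector. EPAS1, which encodes HIF2α, stood at 87.6 to 118 TPM in HIF2α-ko and 101 to 130 TPM in HIF1α/2α-ko against 286 to 346 TPM in vector. By limma HIF1A fell in HIF1α-ko (log2 fold change -1.34, BH-adjusted p = 0.000851) and HIF1α/2α-ko (-0.71, BH-adjusted p = 0.0104), and EPAS1 in HIF2α-ko (-1.59, BH-adjusted p = 0.000375) and HIF1α/2α-ko (-1.45, BH-adjusted p = 1.3e-05), and neither transcript was absent. HIF1A stood at 76.1 to 107.7 TPM in HIF2α-ko, below every vector library and overlapping the dual knockout, with a log2 fold change of -0.52 from vector (BH-adjusted p = 0.112), and the dual knockout differed from HIF2α-ko by -0.19 (BH-adjusted p = 0.453). Set against HIF1α-ko, HIF1A was higher in the dual knockout by 0.635 (BH-adjusted p = 0.0287). The HIF1A transcript was therefore not at the same level in these 2 groups. Replicate 1 stood apart in every group by Pearson's r across genes. In vector its r with the other libraries was 0.968 and 0.966, against 0.989 between these. The values were 0.976 and 0.977 against 0.992 in HIF1α/2α-ko, and 0.982 and 0.983 against 0.991 in HIF1α-ko. In HIF2α-ko they were 0.985 and 0.985 against 0.992. Calls of ABC members against vector that turn on vector replicate 1 are given with and without it. The glial markers GFAP, S100B, SOX2 and AQP4 were under 1 TPM in every library, with AQP4 listed at 0, whereas NES was at 2.64 to 6.17 TPM and VIM at 5635 to 14690 TPM. OLIG2 was highest in HIF1α/2α-ko, at 7.61 to 19.2 TPM against 0.88 to 7.53 TPM elsewhere, and its part in the results was not tested. The leukocyte markers PTPRC and AIF1 were at most 0.17 TPM, although CD68 was at 587 to 1633 TPM and lowest in HIF1α/2α-ko replicate 2. Of the endothelial markers CLDN5 was at most 0.036 TPM, PECAM1 1.19 TPM and VWF 2.93 TPM, and the epithelial markers EPCAM, KRT5 and CDH1 were at most 0.58 TPM. Sequencing depth is unknown, because TPM does not retain it, and no counting error is attached to the values. In bulk libraries fewer expressing cells and less RNA per cell cannot be told apart.

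Expression of the family was uneven. Averaged over the 12 libraries, ABCC3 was the most abundant member (47.7 TPM), followed by ABCF3 (43.8 TPM), ABCA2 (34.98 TPM), ABCC1 (27.8 TPM) and ABCD4 (22.6 TPM), and the ranges of neighbours in this order overlapped. The order was not that of every group, since in vector the means were 43.1 TPM for ABCF3, 38.6 TPM for ABCA2 and 32.1 TPM for ABCC3, and in HIF1α-ko they were 44.3 TPM for ABCF3 and 43.3 TPM for ABCC3. ABCC3 and ABCC1 are organic anion pumps. The members tested were 8 of 11 in ABCC, 5 of 12 in ABCA, 4 of 9 in ABCB, 3 of 4 in ABCD, 3 of 3 in ABCF, the single ABCE gene and 0 of 5 in ABCG. Summed over the 45 members, TPM was 294 to 318 in vector, 301 to 331 in HIF1α-ko, 350 to 410 in HIF2α-ko and 324 to 422 in HIF1α/2α-ko.

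Against vector, 3 members rose and 2 fell in HIF1α-ko, 2 rose in HIF2α-ko, and 9 rose and 3 fell in HIF1α/2α-ko, by limma at a Benjamini-Hochberg (BH) adjusted p under 0.05. ABCB8, ABCC10 and ABCF2 rose and ABCA2 and ABCB6 fell in HIF1α-ko. ABCB9 and ABCC3 rose in HIF2α-ko. The rises in HIF1α/2α-ko were ABCB8, ABCC1, ABCC3, ABCC4, ABCC10, ABCD3, ABCE1, ABCF1 and ABCF2, and the falls were ABCA2, ABCB6 and ABCB9. These are 12.5% higher and 8.33% lower of the 24 tested members in HIF1α-ko, against 17.3% and 8.77% of all 11731 genes tested. In HIF2α-ko they are 8.33% higher and 0% lower against 5.07% and 5.89%. In HIF1α/2α-ko the shares are 37.5% and 12.5% against 31.8% and 14.8%. The members' shares were near those of all genes. By limma 0 members were lower in HIF2α-ko, at an adjusted p and at an unadjusted p under 0.05 alike, and 0 were called in all 3 contrasts. ABCB8 and ABCC3 were the 2 members that passed an unadjusted p under 0.05 in 1 direction in all 3.

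Some of these counts turned on single libraries. Without vector replicate 1, 5 members rose in HIF1α-ko, with ABCC3 and ABCC6 added, and 4 in HIF2α-ko, with ABCB8 and ABCC2 added. Without HIF1α-ko replicate 3, vector replicate 2 or vector replicate 3, ABCA2 was lost and 1 member fell in HIF1α-ko. Without dual-knockout replicate 2 or 3, ABCA2 and ABCB9 were lost and 1 member fell in HIF1α/2α-ko.

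Fold changes are log2 differences of TPM + 1, which understate the change of low genes. Over all 11731 genes the median was 0.18 for HIF1α-ko, -0.04 for HIF2α-ko and 0.21 for HIF1α/2α-ko. The median over the 24 members was 0.16, 0.13 and 0.06 in these contrasts, or -0.02, 0.17 and -0.14 relative to all genes. When the libraries were rescaled by median ratios, the members called in HIF1α/2α-ko were 8 higher and 7 lower in place of 9 and 3, and those in HIF1α-ko were 3 higher and 3 lower in place of 3 and 2. ABCA1 and ABCD4 were among the added falls in HIF1α/2α-ko, the call lost was ABCC3, and the added fall in HIF1α-ko was ABCA1. The same rescaling moved the share of higher calls over all genes from 68.2% to 50.6% in HIF1α/2α-ko and from 66.4% to 45.4% in HIF1α-ko.

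**Figure D1:**
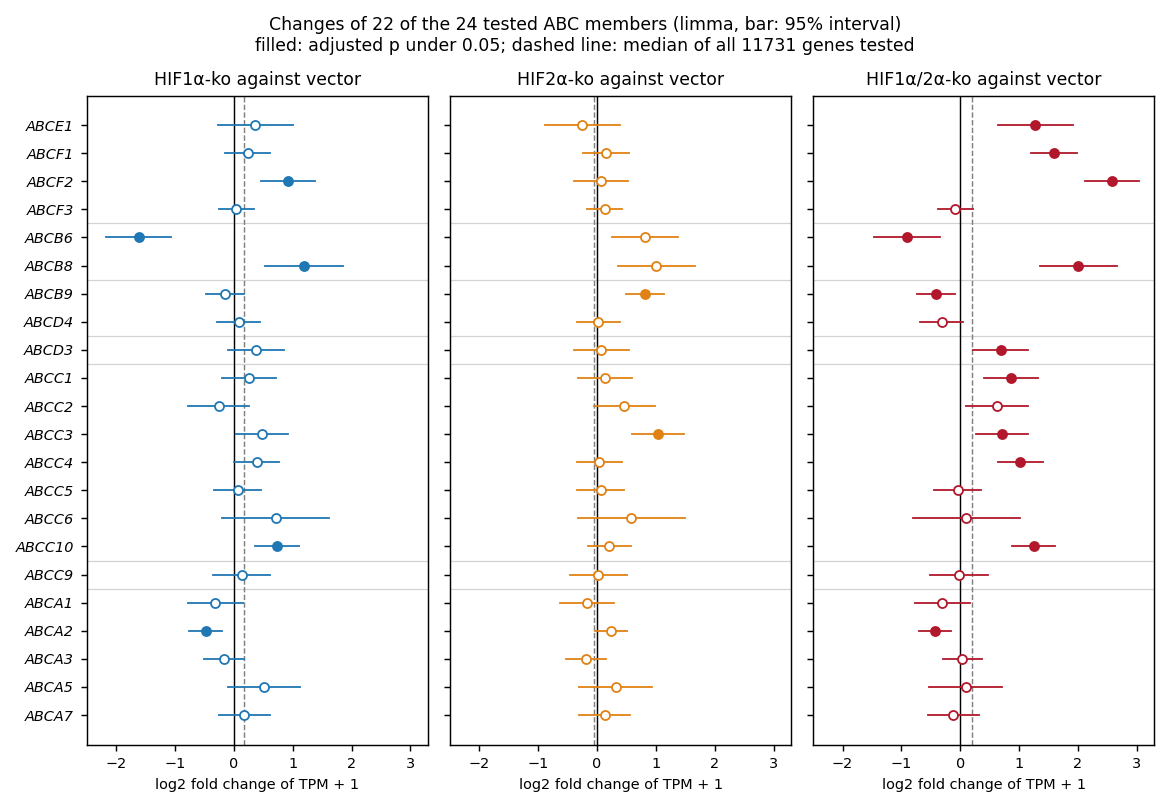
Log2 fold change of TPM + 1 (x axis) of 22 of the 24 tested ABC members (y axis, grouped by role) in each knockout against vector, with 95% intervals from limma; filled points passed an adjusted p under 0.05 and the dashed line is the median of all genes tested. ABCF2, ABCB8 and ABCF1 lie farthest to the right in HIF1α/2α-ko (2.58, 2.00 and 1.60), and ABCB6 lies farthest to the left in HIF1α-ko (-1.62).

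Among the 4 members without a membrane domain, 3 rose in HIF1α/2α-ko, where 31.8% of all genes rose. ABCF2 (ENSG00000033050, chromosome 7, 151212490 to 151227230, minus strand), a member of the ABCF family of ATPases, stood at 7.63, 5.81 and 4.74 TPM in vector, 10.3, 13.5 and 12.9 TPM in HIF1α-ko, 6.81, 6.13 and 6.003 TPM in HIF2α-ko and 29.2, 47.5 and 48.3 TPM in HIF1α/2α-ko. Every HIF1α-ko library lay above every vector library, every dual-knockout library lay above all others, and HIF2α-ko overlapped vector. The log2 fold change of ABCF2 was 0.92 (SE 0.21, BH-adjusted p = 0.00931) in HIF1α-ko, 0.07 (BH-adjusted p = 0.875) in HIF2α-ko and 2.58 (SE 0.21, BH-adjusted p = 4.04e-06) in HIF1α/2α-ko, where the ratio of mean TPM was 6.88. GENCODE gives 45.8% of its exonic bases also to AC021097.2 on the same strand, a gene with no row in the table, so how reads of these bases were assigned is unknown. The pseudogenes ABCF2P1 and ABCF2P2 have no row either, so that any reads shared with them cannot be told apart.

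ABCF1 (ENSG00000204574, chromosome 6, 30571376 to 30597179, plus strand), which binds the initiation factor eIF2, stood at 8.29, 7.38 and 10.8 TPM in vector, 8.797, 11.8 and 10.99 TPM in HIF1α-ko, 9.37, 10.4 and 9.66 TPM in HIF2α-ko and 23.5, 32.9 and 29.5 TPM in HIF1α/2α-ko. The single knockouts overlapped vector, and the dual knockout lay above all other libraries. The log2 fold change was 0.24 (BH-adjusted p = 0.342) in HIF1α-ko, 0.15 (BH-adjusted p = 0.633) in HIF2α-ko and 1.60 (SE 0.18, BH-adjusted p = 2.78e-05) in HIF1α/2α-ko.

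ABCE1 (ENSG00000164163, chromosome 4, 145097932 to 145129179, plus strand), the factor that splits ribosomes after termination, stood at 2.94, 1.66 and 2.397 TPM in vector, 2.53, 3.97 and 3.35 TPM in HIF1α-ko, 1.32, 2.42 and 1.67 TPM in HIF2α-ko and 3.72, 8.57 and 10.1 TPM in HIF1α/2α-ko. All dual-knockout libraries lay above the vector libraries, but replicate 1 of the dual knockout lay within the range of HIF1α-ko. The log2 fold change was 1.27 (SE 0.29, BH-adjusted p = 0.00372) in HIF1α/2α-ko, 0.37 (BH-adjusted p = 0.372) in HIF1α-ko and -0.25 (BH-adjusted p = 0.645) in HIF2α-ko. Exons of ANAPC10 and OTUD4 overlap it on the other strand over 7.49% and 4.41% of its exonic bases, and no source used here says whether reads were counted by strand. ABCF3, the remaining member of the 4, ranged from 34.8 to 48.2 TPM over the 12 libraries and was called in no contrast on the deposited scale.

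The summed TPM of these 4 genes was 55.5 to 63.1 in vector, 69.1 to 71.8 in HIF1α-ko, 64.3 to 66.2 in HIF2α-ko and 91.2 to 134.7 in HIF1α/2α-ko. Every dual-knockout sum exceeded those of the other groups.

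**Figure D2:**
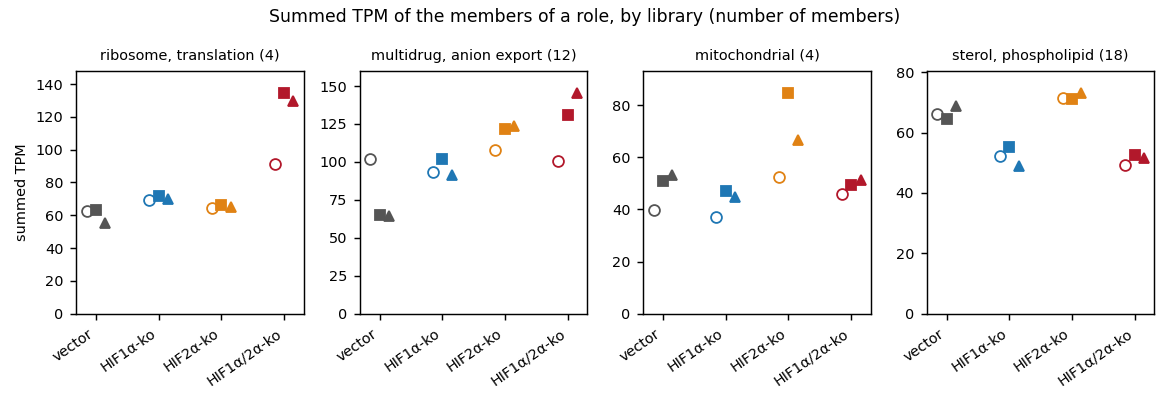
Summed TPM (y axes, from 0) of the members of 4 roles in each library, by group (x axes), with the number of members in brackets; open circles are replicate 1, squares replicate 2 and triangles replicate 3. The dual-knockout sums of the ribosome-associated members, 91.2 to 134.7, lie above every other library, and vector replicate 1 (101.9) lies above the other vector libraries for the multidrug and organic anion exporters.

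The bases before the start sites of the 3 members with the largest rises in HIF1α/2α-ko are shown because these genes rose together. They are RefSeq sequence of GRCh38.p14, read 5′ to 3′ on the strand of the gene and ended before the first base that GENCODE annotates as an exon. Capitals mark ACGTG or GCGTG on either strand, the core letters of hypoxia response elements, which read CACGT or CACGC when they lie on the other strand.
ABCF2 (chr7:151227231-151227455, minus strand): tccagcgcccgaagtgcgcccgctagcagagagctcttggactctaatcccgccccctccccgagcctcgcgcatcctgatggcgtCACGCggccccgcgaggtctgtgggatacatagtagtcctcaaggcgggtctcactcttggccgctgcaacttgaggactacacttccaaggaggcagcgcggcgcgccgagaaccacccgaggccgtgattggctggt
ABCF1 (chr6:30571192-30571375, plus strand): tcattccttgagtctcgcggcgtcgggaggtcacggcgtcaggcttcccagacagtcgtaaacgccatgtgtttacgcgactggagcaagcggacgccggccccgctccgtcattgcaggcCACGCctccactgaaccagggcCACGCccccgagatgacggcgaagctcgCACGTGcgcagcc
ABCB8 (chr7:151028200-151028421, plus strand): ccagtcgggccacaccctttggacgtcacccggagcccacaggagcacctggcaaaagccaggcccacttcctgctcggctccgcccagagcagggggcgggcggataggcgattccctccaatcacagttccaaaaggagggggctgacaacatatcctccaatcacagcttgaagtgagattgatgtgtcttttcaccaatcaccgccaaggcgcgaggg
In the stretch shown, ABCF2 held 1 match and ABCF1 held 4, of which 2 are the palindrome CACGTG read on both strands. ABCB8 held 0. Over the full 250 bases before the start, 43.2% of the 35116 windows of all genes held ACGTG or GCGTG, 18.5% held ACGTG and 32.2% held GCGTG. Windows were found for 20 of the 24 tested members, of which 15 held a match in at least 1 window. Counted by window, as for all genes, 29 of 53 windows (54.7%) held a match. These 53 are the windows of 35 members, tested or not, and some windows of the same gene overlap. The GC content of the windows was not matched to that of all genes. ABCB6, which fell, held 2 ACGTG matches, both in 1 palindrome. A match is a description of letters, and its absence from a window says nothing of the factor.

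Of the mitochondrial members, ABCB6 fell and ABCB8 rose in HIF1α-ko and HIF1α/2α-ko, while neither was called in HIF2α-ko, where both had positive values. ABCB6 (ENSG00000115657, chromosome 2, 219209766 to 219219017, minus strand), a porphyrin transporter, stood at 14.9, 23.2 and 23.3 TPM in vector, 5.04, 6.89 and 5.78 TPM in HIF1α-ko, 23.97, 54.2 and 35.9 TPM in HIF2α-ko and 9.66, 11.2 and 10.1 TPM in HIF1α/2α-ko. The 4 groups did not overlap, with HIF1α-ko lowest, followed by HIF1α/2α-ko, vector and HIF2α-ko. ABCB6 had a log2 fold change of -1.62 (SE 0.26, BH-adjusted p = 0.00141) in HIF1α-ko and -0.90 (SE 0.26, BH-adjusted p = 0.0127) in HIF1α/2α-ko. The value for HIF2α-ko was 0.81 (SE 0.26, BH-adjusted p = 0.0631), a value that became a call after median ratio scaling (BH-adjusted p = 0.0385), quantile normalization (0.035), the replicate block (0.0137) and without HIF2α-ko replicate 1 (0.0225). GENCODE gives 54.7% of its exonic bases also to AC068946.2, which lies on the same strand and has no row in the table.

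ABCB8 (ENSG00000197150, chromosome 7, 151028422 to 151047782, plus strand), an inner-membrane protein linked to the mitochondrial potassium channel and to iron export, stood at 8.02, 3.24 and 2.83 TPM in vector, 13.9, 9.904 and 9.71 TPM in HIF1α-ko, 13.8, 7.51 and 8.44 TPM in HIF2α-ko and 21.8, 19.03 and 19.7 TPM in HIF1α/2α-ko. Replicate 1 was the highest library of each group. HIF1α-ko and HIF1α/2α-ko lay above vector, whereas vector replicate 1 lay within the range of HIF2α-ko. For ABCB8 the log2 fold change was 1.19 (SE 0.30, BH-adjusted p = 0.0143) in HIF1α-ko and 2.00 (SE 0.30, BH-adjusted p = 0.000215) in HIF1α/2α-ko. The former call was lost without vector replicate 2 (1.03, BH-adjusted p = 0.0614) or vector replicate 3 (0.96, BH-adjusted p = 0.0661). In HIF2α-ko the value was 1.01 (BH-adjusted p = 0.0519), which passed without vector replicate 1 (1.40, BH-adjusted p = 0.00239), with the replicate block (BH-adjusted p = 0.00857), with a pseudocount of 0.1 (0.0495) and when only genes averaging 5 TPM or more were kept (0.0461).

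ABCB10, a mitochondrial inner-membrane transporter that was not tested, stood at 0.30, 0.13 and 0.12 TPM in vector, 0.59, 0.65 and 0.76 TPM in HIF1α-ko, 0.15, 0.31 and 0.37 TPM in HIF2α-ko and 0.25, 1.09 and 0.86 TPM in HIF1α/2α-ko. Its HIF1α-ko libraries lay above vector and its dual-knockout libraries overlapped vector, all but 1 of the 12 being under 1 TPM. ABCB10 was given in full after its values were seen. Its pseudogenes ABCB10P1, ABCB10P3 and ABCB10P4 have no row in the table, so that any reads shared with them cannot be told apart. The summed TPM of the 4 mitochondrial members was 52.4 to 84.8 in HIF2α-ko against 39.9 to 53.2 in vector, ranges that overlapped. It was 37.1 to 47.2 in HIF1α-ko and 45.95 to 51.4 in HIF1α/2α-ko. ABCB6 made up 38.0 of the mean sum of 67.9 TPM in HIF2α-ko, and 20.5 of 48.0 TPM in vector.

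**Figure D3:**
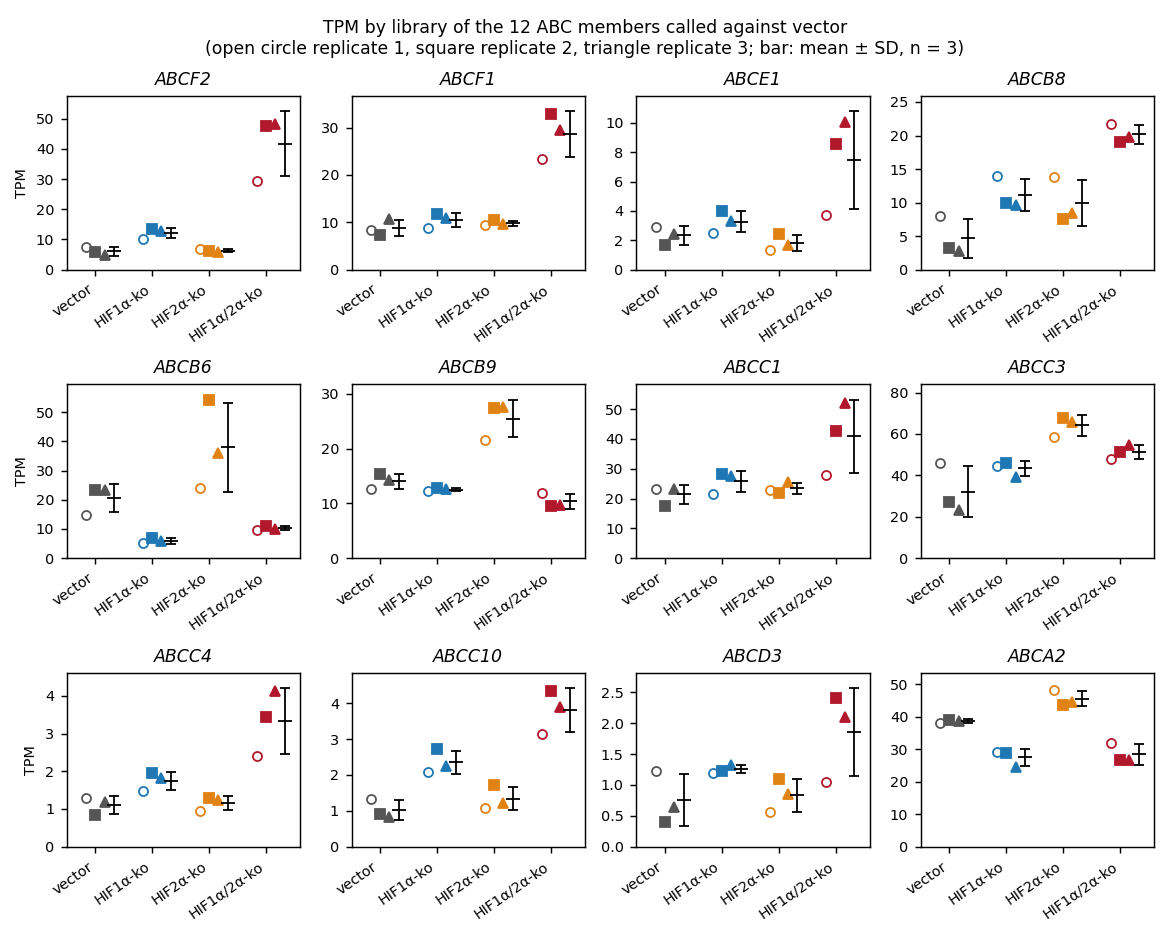
TPM (y axes, each from 0) of the 12 ABC members called against vector in at least 1 contrast, in every library by group (x axes); open circles are replicate 1, squares replicate 2, triangles replicate 3, and bars the mean ± SD of 3 libraries. ABCF2, ABCF1, ABCB8, ABCC4 and ABCC10 are highest in all 3 dual-knockout libraries, and ABCB6, ABCB9, ABCC3 and ABCA2 are highest in all 3 HIF2α-ko libraries.

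Of the lysosomal members, ABCB9 (ENSG00000150967, chromosome 12, 122920951 to 122981649, minus strand), the TAP-like peptide transporter, stood at 12.6, 15.3 and 14.2 TPM in vector, 12.2, 12.7 and 12.6 TPM in HIF1α-ko, 21.5, 27.3 and 27.5 TPM in HIF2α-ko and 11.9, 9.51 and 9.64 TPM in HIF1α/2α-ko. HIF2α-ko lay above all other groups and the dual knockout below all others. The log2 fold change of ABCB9 was 0.81 (SE 0.15, BH-adjusted p = 0.00678) in HIF2α-ko, -0.15 (BH-adjusted p = 0.484) in HIF1α-ko and -0.41 (SE 0.15, BH-adjusted p = 0.0415) in HIF1α/2α-ko. The fall in HIF1α/2α-ko was lost in a fit of the groups compared alone (BH-adjusted p = 0.119) and without replicate 2 or replicate 3 of any of the 4 groups (0.0554 to 0.133). Exons of OGFOD2 (mean 17.2 TPM) and ARL6IP4 (mean 145 TPM) overlap ABCB9 on the other strand over 12.5% and 11.96% of its exonic bases, so that without strand their reads cannot be told apart there. ABCD4, which is needed for the lysosomal release of vitamin B12, ranged from 14.5 to 26.6 TPM. In HIF1α/2α-ko the log2 fold change of ABCD4 was -0.31 (BH-adjusted p = 0.145) on the deposited scale and passed with median ratio scaling (-0.55, BH-adjusted p = 0.00892).

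TAP1 and TAP2, which form the transporter that loads peptides onto MHC class I, belong to the ABCB subfamily under other symbols and are no members here. TAP1 rose by a log2 of 0.71 (BH-adjusted p = 0.00393) in HIF1α-ko and 1.07 (BH-adjusted p = 8.4e-05) in HIF1α/2α-ko, and TAP2 by 1.12 (BH-adjusted p = 0.00593) in HIF1α/2α-ko. The TAP1 call in HIF1α-ko was lost with median ratio scaling. CFTR, the ABCC member that is a chloride channel, was at most 0.22 TPM.

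Of the 12 multidrug and organic anion exporters, 7 were tested, and 4 of these rose in HIF1α/2α-ko, 1 in HIF1α-ko and 1 in HIF2α-ko, where 31.8%, 17.3% and 5.07% of all genes rose. ABCC1 (ENSG00000103222, chromosome 16, 15949577 to 16143074, plus strand), the exporter of glutathione conjugates also called MRP1, stood at 23.3, 17.7 and 23.2 TPM in vector, 21.6, 28.2 and 27.5 TPM in HIF1α-ko, 22.9, 21.8 and 25.4 TPM in HIF2α-ko and 27.7, 42.7 and 52.02 TPM in HIF1α/2α-ko. The dual knockout lay above vector in all 3 libraries, while its replicate 1 lay within the range of HIF1α-ko. ABCC1 had a log2 fold change of 0.87 (SE 0.21, BH-adjusted p = 0.00492) in HIF1α/2α-ko, 0.26 (BH-adjusted p = 0.379) in HIF1α-ko and 0.13 (BH-adjusted p = 0.741) in HIF2α-ko.

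ABCC3 (ENSG00000108846, chromosome 17, 50634777 to 50692252, plus strand), or MRP3, which exports glucuronides and bile acids, stood at 46.2, 27.03 and 23.1 TPM in vector, 44.4, 46.2 and 39.4 TPM in HIF1α-ko, 58.5, 67.8 and 65.98 TPM in HIF2α-ko and 47.9, 51.1 and 54.5 TPM in HIF1α/2α-ko. Vector replicate 1 lay level with the highest HIF1α-ko library and far above the other vector libraries, and HIF2α-ko was the highest group with no overlap. For ABCC3 the log2 fold change was 1.03 (SE 0.20, BH-adjusted p = 0.00852) in HIF2α-ko, 0.72 (SE 0.20, BH-adjusted p = 0.0121) in HIF1α/2α-ko and 0.48 (BH-adjusted p = 0.0988) in HIF1α-ko. The last of these passed without vector replicate 1 (0.77, BH-adjusted p = 0.00107). The call in HIF1α/2α-ko was lost without vector replicate 3 (0.52, BH-adjusted p = 0.0546), with median ratio scaling (0.47, BH-adjusted p = 0.0635), with quantile normalization (BH-adjusted p = 0.0748) and in a fit of the groups compared alone (0.0503). That in HIF2α-ko was lost in a fit of the groups compared alone (BH-adjusted p = 0.0531).

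ABCC4 (ENSG00000125257, chromosome 13, 95019829 to 95301475, minus strand), or MRP4, an exporter of cyclic nucleotides and prostaglandins, stood at 1.28, 0.85 and 1.19 TPM in vector, 1.48, 1.94 and 1.82 TPM in HIF1α-ko, 0.95, 1.29 and 1.24 TPM in HIF2α-ko and 2.39, 3.45 and 4.12 TPM in HIF1α/2α-ko. HIF1α-ko lay above vector without overlap and the dual knockout above both, while HIF2α-ko overlapped vector. The log2 fold change of ABCC4 was 1.02 (SE 0.18, BH-adjusted p = 0.000533) in HIF1α/2α-ko, 0.39 (BH-adjusted p = 0.12) in HIF1α-ko and 0.04 (BH-adjusted p = 0.917) in HIF2α-ko.

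ABCC10 (ENSG00000124574, chromosome 6, 43427366 to 43450430, plus strand), or MRP7, which can export taxanes, stood at 1.33, 0.92 and 0.82 TPM in vector, 2.08, 2.71 and 2.25 TPM in HIF1α-ko, 1.08, 1.71 and 1.22 TPM in HIF2α-ko and 3.14, 4.35 and 3.901 TPM in HIF1α/2α-ko. HIF2α-ko overlapped vector, HIF1α-ko lay above both, and the dual knockout lay above all. ABCC10 had a log2 fold change of 0.73 (SE 0.17, BH-adjusted p = 0.00923) in HIF1α-ko, 0.21 (BH-adjusted p = 0.469) in HIF2α-ko and 1.25 (SE 0.17, BH-adjusted p = 0.000104) in HIF1α/2α-ko. ABCC4, ABCC10 and ABCD3 had vector libraries under 1 TPM and met the filter on low values through the knockout groups.

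ABCC2 (MRP2), the exporter of conjugated bilirubin, stood at 13.2, 7.02 and 6.98 TPM in vector, 7.86, 7.21 and 6.31 TPM in HIF1α-ko, 10.5, 13.00 and 13.9 TPM in HIF2α-ko and 10.3, 16.03 and 16.2 TPM in HIF1α/2α-ko. Vector replicate 1 lay far above the other vector libraries and within the range of HIF2α-ko and HIF1α/2α-ko. In HIF1α/2α-ko the log2 fold change of ABCC2 was 0.62 (BH-adjusted p = 0.0513), which passed without vector replicate 1 (0.90, BH-adjusted p = 0.00408), without dual-knockout replicate 1 (0.82, BH-adjusted p = 0.0155) and without the mean-variance trend (BH-adjusted p = 0.0492). In HIF2α-ko it was 0.46 (BH-adjusted p = 0.241), which passed without vector replicate 1 (0.74, BH-adjusted p = 0.0255).

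ABCC6, whose loss causes ectopic calcification, spread from 1.59 to 8.16 TPM within vector. In HIF1α-ko the log2 fold change of ABCC6 was 0.71 (BH-adjusted p = 0.224) and passed without vector replicate 1 (1.15, BH-adjusted p = 0.0423). Its pseudogenes ABCC6P1 and ABCC6P2 have no row in the table, so that reads shared with them cannot be told apart. ABCC2 and ABCC6 were given in detail after their values were seen. ABCC5, an exporter of cyclic nucleotides, ranged from 5.68 to 8.97 TPM and was not called on the deposited scale.

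ABCB1 (ENSG00000085563), or P-glycoprotein, which exports many hydrophobic drugs, was listed at 0 in all 12 libraries. ABCB5, ABCC11 and ABCC12, the other untested exporters beside ABCG2, were at most 0.26 TPM.

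ABCG2 (ENSG00000118777, chromosome 4, 88090264 to 88231322, minus strand), the breast cancer resistance protein, was under 1 TPM in every library. It stood at 0.27, 0.32 and 0.46 TPM in vector, 0.22, 0.52 and 0.41 TPM in HIF1α-ko, 0.56, 0.64 and 0.72 TPM in HIF2α-ko and 0.54, 0.74 and 0.32 TPM in HIF1α/2α-ko. HIF2α-ko lay above vector in all 3 libraries, while the other knockouts overlapped vector. The means were 0.349 ± 0.098 TPM in vector, 0.385 ± 0.15 TPM in HIF1α-ko, 0.640 ± 0.079 TPM in HIF2α-ko and 0.534 ± 0.21 TPM in HIF1α/2α-ko (SD, n = 3).

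The exact permutation p (two-sided) for the difference of ABCG2 from vector was 0.8 for HIF1α-ko, 0.1 for HIF2α-ko and 0.2 for HIF1α/2α-ko, and 0.1 is the smallest that 3 against 3 libraries allow. In a limma fit without the filter its log2 fold changes were 0.03 (95% interval -0.20 to 0.27), 0.28 (0.05 to 0.52) and 0.18 (-0.06 to 0.42), with adjusted p of 0.875, 0.151 and 0.244. The interval for HIF2α-ko lay above 0 (unadjusted p = 0.0241), but no contrast of ABCG2 from vector passed the adjusted threshold, which does not show that the groups were alike.

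The study also measured ABCG2 by RT-qPCR, and its primers are shown to set the transcript part read there beside the TPM of the whole gene.
ABCG2 forward: cccgcgacagcttccaatgac
ABCG2 reverse: cgaagatttgcctccacctgtg
Both matched all 4 ABCG2 transcripts of GENCODE 29 exactly and span a product of 204 bases. The forward primer lies on chromosome 4 at 88139915 to 88139935 in exon 2, and the reverse primer crosses the junction of exons 3 and 4, all within coding sequence. The measured product is common to every ABCG2 transcript of that annotation.

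**Figure D4:**
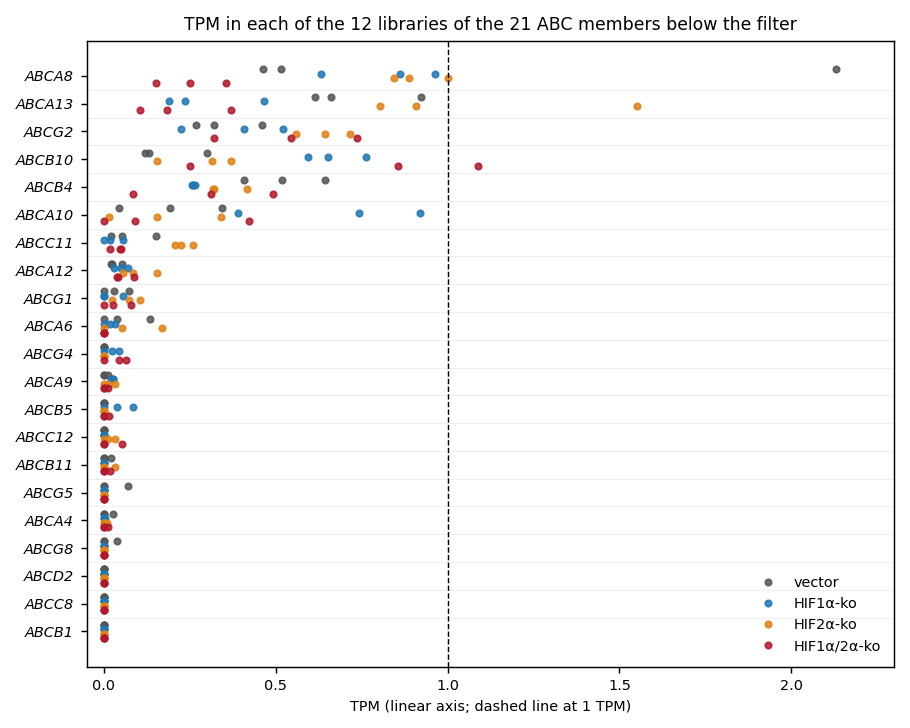
TPM (x axis) in each of the 12 libraries of the 21 ABC members not tested (y axis), coloured by group. ABCG2 lies between 0.22 and 0.74 TPM in all libraries, and ABCB1, ABCC8 and ABCD2 are listed at 0 throughout.

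Of the peroxisomal members, ABCD3 (ENSG00000117528, chromosome 1, 94418455 to 94518666, plus strand), or PMP70, which imports branched-chain and other fatty acids, stood at 1.23, 0.41 and 0.64 TPM in vector, 1.199, 1.23 and 1.33 TPM in HIF1α-ko, 0.56, 1.098 and 0.85 TPM in HIF2α-ko and 1.05, 2.402 and 2.11 TPM in HIF1α/2α-ko. The groups overlapped, since replicate 1 was the highest in vector and the lowest in the dual knockout. For ABCD3 the log2 fold change was 0.69 (SE 0.22, BH-adjusted p = 0.0207) in HIF1α/2α-ko, 0.38 (BH-adjusted p = 0.209) in HIF1α-ko and 0.08 (BH-adjusted p = 0.867) in HIF2α-ko. The call was lost without replicate 2 or replicate 3 of vector or of the dual knockout (BH-adjusted p = 0.0595 to 0.0914) and in a fit of the groups compared alone (0.0689). ABCD2 was listed at 0 in all libraries.

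Of the 18 sterol, phospholipid and bile salt transporters, 5 were tested and ABCA2 alone was called. Against vector it was lower in HIF1α-ko and HIF1α/2α-ko, where 8.77% and 14.8% of all genes fell. ABCA2, a lipid transporter of endosomes and lysosomes that is abundant in brain, stood at 37.96, 39.1 and 38.6 TPM in vector, 29.2, 28.7 and 24.4 TPM in HIF1α-ko, 48.2, 43.7 and 44.6 TPM in HIF2α-ko and 32.03, 26.6 and 26.5 TPM in HIF1α/2α-ko. HIF1α-ko and HIF1α/2α-ko overlapped each other and lay below vector, and HIF2α-ko lay above it. The log2 fold change of ABCA2 was -0.48 (SE 0.13, BH-adjusted p = 0.0164) in HIF1α-ko, 0.23 (BH-adjusted p = 0.263) in HIF2α-ko and -0.43 (SE 0.13, BH-adjusted p = 0.0135) in HIF1α/2α-ko. The fall in HIF1α-ko was no longer called without vector replicate 2 or 3 (BH-adjusted p = 0.0505 for each) or HIF1α-ko replicate 3 (0.0808), and that in HIF1α/2α-ko without dual-knockout replicate 2 (0.0569) or 3 (0.0572). Both were lost in a fit of the groups compared alone (0.0549 and 0.0588). ABCA2 changed by less than 0.5 on the log2 scale and was given in every library after its values were seen.

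ABCA1, the cholesterol efflux pump that lipidates apolipoprotein A-I, ranged from 10.2 to 21.4 TPM. ABCA1 had a log2 fold change of -0.31 (BH-adjusted p = 0.293) in HIF1α-ko and -0.30 (BH-adjusted p = 0.26) in HIF1α/2α-ko, and both passed with median ratio scaling (-0.50, BH-adjusted p = 0.0483) and (-0.54, BH-adjusted p = 0.0194). ABCA3 (1.28 to 2.295 TPM), which packs surfactant lipids, ABCA5 (0.26 to 2.06 TPM) and ABCA7 (2.59 to 5.15 TPM) were called in no contrast. Of the 13 members of this group not tested, ABCA8 peaked at 2.13 TPM in vector replicate 1 and ABCA13 at 1.55 TPM in HIF2α-ko replicate 1. ABCG1, the partner of ABCA1 in sterol efflux, was at most 0.11 TPM. The other 10, namely ABCA4, ABCA6, ABCA9, ABCA10, ABCA12, ABCB4, ABCB11, ABCG4, ABCG5 and ABCG8, were at most 0.92 TPM.

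Summed over the 18 members, TPM was 64.5 to 68.8 in vector, 49.0 to 55.1 in HIF1α-ko, 71.1 to 73.2 in HIF2α-ko and 49.2 to 52.6 in HIF1α/2α-ko, and ABCA2 was its largest part. ABCC9, a regulatory subunit of potassium channels, ranged from 1.48 to 3.54 TPM without a call, and its relative ABCC8 was listed at 0.

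Between the knockouts, 7 members (29.2%) had higher levels in HIF1α/2α-ko when set against HIF1α-ko, compared with 17.7% of all genes, and 0 were lower by limma, against 10.6%. These were ABCC1, ABCC2, ABCC4, ABCC10, ABCE1, ABCF1 and ABCF2, with log2 differences from 0.52 (BH-adjusted p = 0.0386) for ABCC10 to 1.66 (BH-adjusted p = 0.000197) for ABCF2. At an unadjusted p under 0.05, 1 member, ABCD4, was lower. With median ratio scaling the split was 7 higher and 1 lower, and with quantile normalization it was 6 and 2. Knockout libraries that shared a replicate number deviated together, and with that number as a block in the knockout groups the count was 11. It added ABCB6 (0.72, BH-adjusted p = 0.0103) and ABCB8 (0.81, BH-adjusted p = 0.00177) as higher, and ABCD4 (-0.40, BH-adjusted p = 0.0298) was among those added as lower.

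The calls of ABCF1 and ABCF2 in this contrast held without each library. That of ABCC1 (BH-adjusted p = 0.047) was lost without any 1 of 9 libraries, namely each HIF1α-ko and HIF2α-ko library, dual-knockout replicates 2 and 3 and vector replicate 3 (0.0555 to 0.19). The ABCC1 call was also lost without the filter on low values (0.0688) and with quantile normalization (0.0651). The same held in a fit of the groups compared alone (0.0914) and without the mean-variance trend (0.0506). Those of ABCC2, ABCC4, ABCC10 and ABCE1 were lost without dual-knockout replicate 2 or 3 (0.0593 to 0.146). They were also lost without HIF1α-ko replicate 1 for ABCC4, replicate 3 for ABCC2, either for ABCC10 and ABCE1 (0.0628 to 0.116), and HIF2α-ko replicate 3 for ABCC10 (0.0554). ABCC10 was lost with a pseudocount of 0.1 (0.0752) and in a fit of the groups compared alone (0.0605). ABCE1 was lost in that fit and without the filter on low values. The count was 2 without dual-knockout replicate 2 or 3, and 3 without HIF1α-ko replicate 1 or 3.

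In HIF1α/2α-ko against HIF2α-ko, 8 members (33.3%) were higher and 3 (12.5%) lower, against 33.5% and 12.9% of all genes. The higher members were ABCB8, ABCC1, ABCC4, ABCC10, ABCD3, ABCE1, ABCF1 and ABCF2. ABCF2 (2.51, BH-adjusted p = 4.71e-06), ABCE1 (1.52, BH-adjusted p = 0.00122) and ABCF1 (1.44, BH-adjusted p = 5.45e-05) had the largest positive log2 differences, and ABCB6 (-1.71, BH-adjusted p = 0.000218), ABCB9 (-1.22, BH-adjusted p = 5.22e-05) and ABCA2 (-0.67, BH-adjusted p = 0.00106) were lower. With median ratio scaling the split was 6 higher and 7 lower, and with quantile normalization it was 6 and 9. With the replicate block in the knockout groups it was 8 and 5, ABCC3 and ABCD4 being added. ABCB8 was lost without HIF2α-ko replicate 2 (BH-adjusted p = 0.0705) or 3 (0.0575), ABCC1 without dual-knockout replicate 3 (0.0661), and ABCD3 without dual-knockout replicate 2 or 3 or HIF2α-ko replicate 1 or 3 (0.0744 to 0.143). Quantile normalization also lost ABCB8 (0.118) and ABCC1 (0.0593), and median ratio scaling lost ABCB8 (0.0924) and ABCD3. ABCD3 was lost as well with a pseudocount of 0.1 and in a fit of the groups compared alone.

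In HIF1α-ko against HIF2α-ko, 2 members (8.33%) were higher and 4 (16.7%) lower, against 17.8% and 7.37% of all genes. ABCB6 differed most (-2.43, BH-adjusted p = 6.14e-05), and ABCB9 (-0.96, BH-adjusted p = 0.000926), ABCA2 (-0.71, BH-adjusted p = 0.00212) and ABCC2 (-0.72, BH-adjusted p = 0.0452) were also lower, while ABCF2 (0.85, BH-adjusted p = 0.0139) and ABCC10 (0.52, BH-adjusted p = 0.0407) were higher. With median ratio scaling or quantile normalization ABCC10 was lost and ABCC3 gained, which left 1 higher and 5 lower. With the replicate block in the knockout groups the count was 10, 5 higher and 5 lower, with ABCC3, ABCC4 and ABCE1 among those added. ABCF2 was lost without HIF1α-ko replicate 2 (BH-adjusted p = 0.0613) or 3 (0.0546). ABCC10 was lost without HIF1α-ko replicate 2 or 3, HIF2α-ko replicate 1 or 3, dual-knockout replicate 3 or vector replicate 2 (0.0503 to 0.152), and ABCC2 without any HIF1α-ko or HIF2α-ko library or dual-knockout replicate 2 or 3 (0.0539 to 0.14). ABCC2 was also lost without the filter on low values (0.0708) and with the replicate block over the 4 groups (0.0533). The count was 3 without HIF1α-ko replicate 2 or 3.

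The interaction term, which takes the dual knockout's change and subtracts those of both single knockouts, asks whether the losses add on the log2 scale. It was called higher for 2 members (8.33%) and lower for 1 (4.17%), against 13.2% and 7.35% of all genes. ABCF2 (1.59, SE 0.30, BH-adjusted p = 0.0044) and ABCF1 (1.21, SE 0.25, BH-adjusted p = 0.00709) stood above the sum, and ABCB9 (-1.07, SE 0.21, BH-adjusted p = 0.00536) stood below it. These 3 calls held under every alternative in which the term was fitted. ABCE1 stood at 1.15 (BH-adjusted p = 0.0676) and passed with median ratio scaling (BH-adjusted p = 0.0459), with quantile normalization (0.0309) and without dual-knockout replicate 1 (1.53, BH-adjusted p = 0.00626). ABCC3 stood at -0.80 (BH-adjusted p = 0.0673) and passed with median ratio scaling (BH-adjusted p = 0.0364), with quantile normalization (0.0355) and without vector replicate 1 (-1.08, BH-adjusted p = 0.00104). The count was 5 without vector replicate 1, ABCC3 and ABCC6 being added, and 6 without dual-knockout replicate 1, ABCC1, ABCC4 and ABCE1 being added. For the targeted genes the interaction term was 1.15 (BH-adjusted p = 0.0131) for HIF1A and 0.41 (BH-adjusted p = 0.173) for EPAS1. The contrasts against vector share the vector libraries, so that a shift in these enters all of them.

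**Figure D5:**
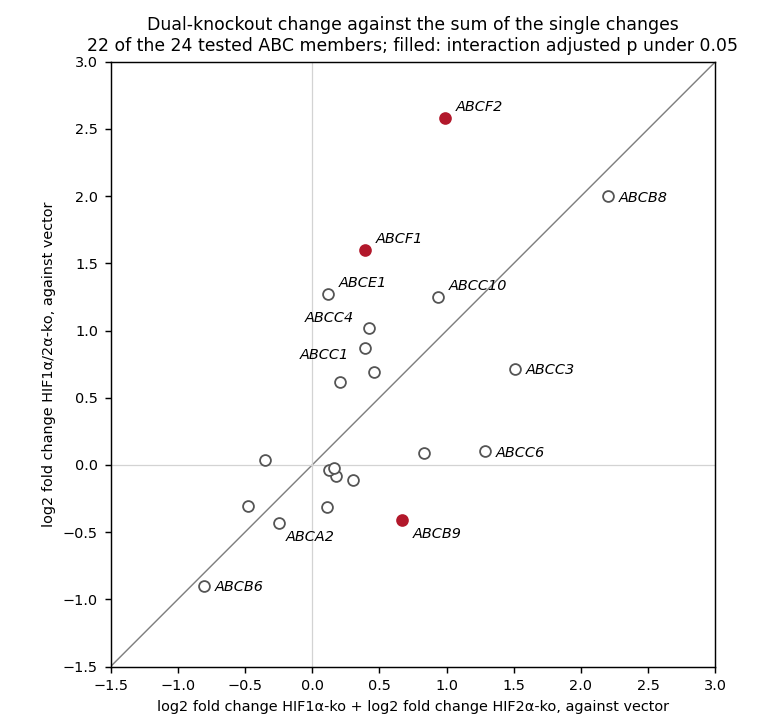
Log2 fold change in HIF1α/2α-ko (y axis) against the sum of those in HIF1α-ko and HIF2α-ko (x axis), all against vector, for 22 of the 24 tested ABC members; on the diagonal the changes add, and filled points passed an adjusted p under 0.05 for the interaction. ABCF2 and ABCF1 lie above the diagonal (1.59 and 1.21) and ABCB9 lies below it (-1.07).

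Genes that work with the family were read from 8 lists. Their counts stand beside the shares of all genes that rose and fell, which were 17.3% and 8.77% for HIF1α-ko, 5.07% and 5.89% for HIF2α-ko and 31.8% and 14.8% for HIF1α/2α-ko. Of 14 tested genes of translation termination, ribosome recycling and the GCN2 pathway, which act beside ABCE1 and the ABCF proteins, 10 rose in HIF1α/2α-ko, with a median log2 fold change of 1.00 against 0.21 over all genes. By limma 0 of the 14 fell there, also at an unadjusted p under 0.05, while with median ratio scaling the split was 9 higher and 2 lower. In HIF1α-ko 4 rose and 1 fell, or 2 and 1 with that scaling, and in HIF2α-ko 1 rose. GCN1, the activator of the eIF2 kinase GCN2, rose by 0.62 (BH-adjusted p = 0.0123) in HIF1α-ko and 1.31 (BH-adjusted p = 3.77e-05) in HIF1α/2α-ko. DDIT3, a stress-induced transcription factor of that pathway, rose by 1.48 (BH-adjusted p = 0.00291) and 2.08 (BH-adjusted p = 8.41e-05).

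The list of glutathione synthesis and conjugation holds genes that make substrates of the ABCC exporters, and also regulators and NQO1. Of its 17 tested genes, 9 rose and 3 fell in HIF1α/2α-ko, 2 rose and 2 fell in HIF1α-ko, and 1 rose in HIF2α-ko. With median ratio scaling these splits became 8 higher and 5 lower, 0 and 3, and 2 and 0. GSR, glutathione reductase, rose by 1.80 (BH-adjusted p = 7.36e-06) in HIF1α/2α-ko, and NQO1, a quinone reductase, by 1.14 (BH-adjusted p = 0.0106) in HIF2α-ko and 2.04 (BH-adjusted p = 3.48e-05) in HIF1α/2α-ko. Of 22 genes of iron-sulfur cluster and heme synthesis, which bear on the mitochondrial members, 9 rose and 2 fell in HIF1α/2α-ko and 4 rose and 3 fell in HIF1α-ko, which became 7 and 3, and 1 and 3, with median ratio scaling. None was called in HIF2α-ko (0 of 22 by limma, 2 at an unadjusted p under 0.05, both lower). ISCU, the scaffold of cluster assembly, rose by 1.24 (BH-adjusted p = 0.000685) in HIF1α-ko and 1.78 (BH-adjusted p = 1.16e-05) in HIF1α/2α-ko.

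Of 15 tested partners of sterol efflux, 7 rose and 3 fell in HIF1α/2α-ko, which became 2 and 4 with median ratio scaling. In HIF1α-ko 5 rose and 1 fell, or 4 and 2 after that scaling, and in HIF2α-ko 1 rose and 1 fell. RXRA, the partner of the LXR receptors that drive ABCA1, rose by 1.41 (BH-adjusted p = 0.000156) in HIF1α-ko and 1.79 (BH-adjusted p = 3.86e-06) in HIF1α/2α-ko, whereas MYLIP, a ligase that degrades the LDL receptor, fell in all 3 knockouts (-0.93, BH-adjusted p = 0.00322, -0.91, BH-adjusted p = 0.00809 and -1.18, BH-adjusted p = 0.0002). Of 24 peroxisomal genes 8 rose and 1 fell in HIF1α/2α-ko, 7 rose in HIF1α-ko and 2 in HIF2α-ko. After rescaling by median ratios, 6 were higher and 2 lower in HIF1α/2α-ko, 5 and 1 in HIF1α-ko, and 4 and 0 in HIF2α-ko. Catalase, CAT, was the 1 that fell (-1.23, BH-adjusted p = 4.41e-05), and PHYH, of phytanic acid oxidation, rose by 0.66 (BH-adjusted p = 0.0282) in HIF1α-ko and 1.14 (BH-adjusted p = 0.000533) in HIF1α/2α-ko.

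Of 10 genes of MHC class I peptide loading, 2 rose and 4 fell in HIF1α/2α-ko, the rises being TAP1 and TAP2, 1 rose in HIF1α-ko and 1 fell in HIF2α-ko. With median ratio scaling these splits became 2 higher and 4 lower, 0 and 0, and 0 and 1. CALR, the chaperone calreticulin, fell in HIF2α-ko (-0.67, BH-adjusted p = 0.00623) and in HIF1α/2α-ko (-1.18, BH-adjusted p = 1.49e-05). Of 9 tested drug carriers and xenobiotic receptors outside the family, 3 rose and 1 fell in HIF1α/2α-ko and 1 rose in HIF1α-ko. SLCO4A1, an organic anion importer, rose by 0.96 (BH-adjusted p = 0.0206) in HIF1α-ko and 1.20 (BH-adjusted p = 0.00281) in HIF1α/2α-ko, and SLCO3A1 by 0.82 (BH-adjusted p = 0.00118) in HIF1α/2α-ko.

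Of 20 genes of the hypoxia response, 11 fell in HIF1α-ko and 12 fell in HIF1α/2α-ko, while 4 rose and 1 fell in HIF2α-ko. CA9, a carbonic anhydrase induced by HIF1α, fell in HIF1α-ko (-1.85, BH-adjusted p = 9.58e-05) and HIF1α/2α-ko (-2.45, BH-adjusted p = 1.52e-06). LOX, lysyl oxidase, fell in HIF2α-ko (-0.93, BH-adjusted p = 0.0153) and HIF1α/2α-ko (-3.22, BH-adjusted p = 7.89e-07). Among the ABC members, ABCB6 and ABCA2 were the 2 called lower in both HIF1α-ko and HIF1α/2α-ko.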

How the data were processed

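Poly(A) RNA-seq libraries of 12 U87 samples, 3 in each of 4 groups, were analysed from 1 table. The authors deposited TPM values per gene, scaled to the same sum in every library ( 999955 to 999982), and depth is therefore unknown. The submitters' processing notes name FastQC 0.11.2, Trimmomatic 0.36, HISAT2 2.0, bedtools 2.26.0 and GRCh38, while the program that computed TPM and strand use are not given in the sources used here.

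Genes that reached 1 TPM in 3 or more libraries entered a limma fit (version 3.58.1, under R 4.3.3) of log2(TPM + 1), using a mean-variance trend, 1 mean per group and no replicate block, and Benjamini-Hochberg adjustment over all tested genes within a contrast at 0.05. The code was tested on simulated data. The vector columns, headed H1 to H3, were matched to samples by their titles after all other columns had been assigned. The members, the role groups and the gene lists were chosen with earlier results of these data known. Values in every library were given for members called against vector whose log2 fold change reached 0.5 in either direction, and for ABCB1, ABCC1 and ABCG2. From each list up to 2 genes of smallest p for HIF1α/2α-ko against vector were named. Some genes that these rules take are not reported here by name. Positions and overlaps are from GENCODE 29, and promoter sequences are from RefSeq on GRCh38.p14. Same-numbered knockout libraries deviated together (Pearson's r 0.196 to 0.508 across genes), whereas those paired with vector did not all do so (-0.0265 to 0.163). Alternatives were a pseudocount of 0.1, other filters, 2 rescalings, no trend, only the groups compared, the replicate block and each library left out. Python 3.11.15 with pandas 2.3.3, numpy 2.4.6 and matplotlib 3.10.9 was used for the rest.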

Additional observations from a re-analysis of the deposited data

Results flagged for a closer look

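For 3 members the change in HIF1α/2α-ko differed from the added changes of both single knockouts by the interaction term of limma. ABCF2 exceeded that sum by 1.59 on the log2 scale (adjusted p = 0.0044), and ABCF1 exceeded it by 1.21 (adjusted p = 0.00709). ABCB9 stood below it, at -1.07 (adjusted p = 0.00536), having risen in HIF2α-ko and fallen in HIF1α/2α-ko. That fall (-0.41, adjusted p = 0.0415 by limma) was lost under 9 of 20 alternatives, with an adjusted p of up to 0.133.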

How the results depend on the processing

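Of 46 calls of single members over all contrasts, 28 held under every one of the 21 alternatives in which they were fitted, 18 were lost under at least 1, and 0 reversed. Of 53 values against vector that were not called, 24 changed sign and 11 were called under at least 1 alternative. With only the groups compared, 1 member was lower in HIF1α-ko, 1 was higher in HIF2α-ko and 1 was lower in HIF1α/2α-ko. When only genes averaging 5 TPM or more were kept, which leaves fewer members, 5 were higher in HIF1α/2α-ko against vector, 4 were called against HIF1α-ko and 7 against HIF2α-ko. Median ratio scaling and quantile normalization each gave 7 lower in HIF1α/2α-ko, and 5 and 7 for the interaction term. With the replicate block over the 4 groups, 4 members were higher in HIF2α-ko and 11 were called between HIF1α/2α-ko and HIF1α-ko. With the block in the knockout groups alone, that count was again 11, 10 were called between HIF1α-ko and HIF2α-ko, and 5 in place of 3 were lower in HIF1α/2α-ko against HIF2α-ko. Leaving out each library gave 2 to 5 higher and 1 to 2 lower in HIF1α-ko, 2 to 4 higher and 0 lower in HIF2α-ko, and 7 to 10 higher and 1 to 3 lower in HIF1α/2α-ko. It gave 2 to 9 calls between HIF1α/2α-ko and HIF1α-ko, 9 to 12 between HIF1α/2α-ko and HIF2α-ko, 3 to 7 between HIF1α-ko and HIF2α-ko and 3 to 6 for the interaction term. The cause was not tested. TPM keeps no depth, so that the precision of members under 1 TPM is unknown.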

Other observations

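Members under the filter on low values were also fitted without it. ABCA13, a large lipid transporter of the ABCA subfamily, stood at 0.61 to 0.92 TPM in vector, 0.19 to 0.47 TPM in HIF1α-ko, 0.80 to 1.55 TPM in HIF2α-ko and 0.11 to 0.37 TPM in HIF1α/2α-ko. Its log2 fold change by limma in HIF1α/2α-ko was -0.51 against vector (adjusted p = 0.018) and -0.76 against HIF2α-ko (adjusted p = 0.00214), and in HIF1α-ko it was -0.68 against HIF2α-ko (adjusted p = 0.00976). ABCB10 had a log2 fold change of 0.52 in HIF1α/2α-ko against vector (adjusted p = 0.0289) and 0.50 in HIF1α-ko (adjusted p = 0.0572). ABCC11, an exporter of lipophilic anions, was at 0.21 to 0.26 TPM in HIF2α-ko and at most 0.15 TPM in every other library. Its log2 fold change in HIF2α-ko was 0.20 from vector (adjusted p = 0.0213), and its log2 difference from HIF2α-ko was -0.24 in HIF1α/2α-ko (adjusted p = 0.00139) and -0.26 in HIF1α-ko (adjusted p = 0.00244). Exons of LONP2 (mean 32.0 TPM) overlap ABCC11 on the other strand over 4.04% of the exonic bases of ABCC11. Whether LONP2 reads entered the low values of ABCC11 was not tested. ABCA10 was at 0.39 to 0.92 TPM in HIF1α-ko and 0 to 0.42 TPM in HIF1α/2α-ko, ranges that overlapped, with a log2 difference of -0.53 (adjusted p = 0.045). Exons of ABCA5 overlap ABCA10 on the same strand over 3.78% of the exonic bases of ABCA10, and how reads there were assigned was not tested. ABCA8 was at 2.13 TPM in vector replicate 1 and 0.46 and 0.52 TPM in the other vector libraries, against 0.15 to 0.35 TPM in HIF1α/2α-ko. These genes were chosen after their values were seen.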
